A study of Mus musculus with 7 samples.

Results

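Each inversion at the Epha4 locus of mouse chromosome 1 joined a stretch of gene-dense chromatin to the remaining Epha4 domain, and the contacts across that join are described here. The members were pairs of 10 kb bins. On one side stood the 33 bins just left of the shared right breakpoint (75.57 to 75.90 Mb in the coordinates of the mutant maps, mm9). On the other stood the bins of the rest of the Epha4 domain (75.90 to 77.51 Mb). This gave 5313 of the 500500 bin pairs in each map. In Inv3 and Inv4 1 joined bin each had too few listed pairs (under 25% of the median), which left 5152 pairs. By the limits of each inversion, the joined stretch of Inv1 was the sequence of 75.28 to 75.61 Mb, that of Inv2 75.13 to 75.46 Mb, that of Inv3 74.93 to 75.26 Mb and that of Inv4 74.79 to 75.12 Mb. These positions are known to 1 or 2 bins.

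Capture Hi-C, which counts ligated read pairs between loci of a probe-enriched region, was read at 71.00 to 81.00 Mb. There were 6 mutant libraries and 1 WT library, with 1 library per condition. The mutants were Inv1, Inv2, Inv3 and Inv4 limb buds, Inv1DelCTCF limb buds and Inv1 embryonic stem cells (Inv1 ESC). Limb buds were taken at E11.5, with 10 embryos pooled per library per the series' design text, and the titles add Distal. The 4 inversions share the right breakpoint and differ in the left one. Inv1DelCTCF carries Inv1 plus a deletion that its label names only as CTCF, of unstated extent. The labels do not say whether the embryos also carried an uninverted chromosome. The cell type field reads G4 ESC, the name of an embryonic stem cell line, for all 7 libraries, so the ESC library was told from its title alone. No WT ESC library was used here, so each comparison of Inv1 ESC with WT also holds the difference between stem cells and limb buds. Contact maps hold no expression, so the labelled tissues could not be checked against marker genes.

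Mammalian chromosomes fold into domains, within which loci meet often and across whose borders they meet seldom. Many borders are bound by CTCF, a zinc finger protein that halts loop extrusion by cohesin. Epha4 encodes an ephrin receptor tyrosine kinase that acts in limb innervation and limb bud tissue, and lies at the far end of a large gene-poor domain. The sequence joined to that domain by the inversions is a gene-dense stretch that includes Wnt6, a secreted Wnt ligand, and Ihh, the hedgehog ligand of growing cartilage. An inversion turns a segment around, so that sequence from its left end comes to lie next to what follows its right end.

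Genes were placed by the gene order of the authors' deposited gene tables. The gene that came to lie next to the Epha4 domain was taken as the first after the largest fall in their contact values. It was Dnpep in Inv1, Cnppd1 for Inv2, Cryba2 for Inv3 and Wnt6 for Inv4. Dnpep encodes an aspartyl aminopeptidase, Cnppd1 a protein with a cyclin-like domain and Cryba2 a lens beta-crystallin. In RefSeq each is a direct protein-coding neighbour of the gene just left of the breakpoint, with 0 coding genes between them. The 250 bases before the start site of these 4 genes and of Epha4 are shown because they are the promoters closest to the new joins and that of the domain's own gene. They are from RefSeq, build GRCm38.p6, whose coordinates differ from the mm9 coordinates of the maps. Capitals mark the core of the CTCF motif, AGGNGGC, on either strand.
Dnpep promoter (chr1:75317638-75317887, minus strand): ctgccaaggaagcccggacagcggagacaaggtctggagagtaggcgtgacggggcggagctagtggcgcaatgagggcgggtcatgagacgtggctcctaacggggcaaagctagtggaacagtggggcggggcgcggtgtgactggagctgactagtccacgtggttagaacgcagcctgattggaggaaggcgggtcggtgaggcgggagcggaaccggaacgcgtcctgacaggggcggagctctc
Cnppd1 promoter (chr1:75141692-75141941, minus strand): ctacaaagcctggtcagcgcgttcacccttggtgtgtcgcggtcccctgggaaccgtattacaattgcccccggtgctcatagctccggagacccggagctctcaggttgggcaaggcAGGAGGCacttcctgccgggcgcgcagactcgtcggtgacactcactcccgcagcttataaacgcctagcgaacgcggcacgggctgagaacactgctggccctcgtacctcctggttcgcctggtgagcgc
Cryba2 promoter (chr1:74893144-74893393, minus strand): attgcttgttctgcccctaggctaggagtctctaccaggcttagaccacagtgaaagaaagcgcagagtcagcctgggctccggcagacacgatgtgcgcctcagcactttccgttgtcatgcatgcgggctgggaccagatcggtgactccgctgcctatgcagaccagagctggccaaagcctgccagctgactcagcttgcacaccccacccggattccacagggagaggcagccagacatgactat
Wnt6 promoter (chr1:74771642-74771891, plus strand): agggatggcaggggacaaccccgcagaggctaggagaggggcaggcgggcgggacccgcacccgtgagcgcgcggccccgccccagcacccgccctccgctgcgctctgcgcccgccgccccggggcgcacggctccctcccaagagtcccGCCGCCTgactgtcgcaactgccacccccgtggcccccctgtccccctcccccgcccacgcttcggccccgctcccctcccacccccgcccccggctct
Epha4 promoter (chr1:77515089-77515338, minus strand): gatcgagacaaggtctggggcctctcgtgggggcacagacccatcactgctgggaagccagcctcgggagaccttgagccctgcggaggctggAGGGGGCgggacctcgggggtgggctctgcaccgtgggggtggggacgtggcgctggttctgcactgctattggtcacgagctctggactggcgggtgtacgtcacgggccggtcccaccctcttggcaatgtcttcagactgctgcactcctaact
The core was found in 3 of these 5 stretches (Cnppd1, Wnt6 and Epha4) and in 25.0% of 32851 mouse promoter stretches of the same length, so the letters are common, and a match is not a binding site. For Dnpep the first of 2 listed starts was taken.

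The frame of the maps was checked first. A balanced map holds read pairs multiplied by 1 factor per bin, and these factors act as a fingerprint of the sequence in a bin. Over 58 bins of the Inv1 segment the log factors correlated with WT read backwards at 0.43 (Inv1), 0.27 (Inv1DelCTCF) and 0.45 (Inv1 ESC) (across bins, which are not replicates). Read forwards, the correlations were -0.10, -0.17 and -0.05 in the same order. With the mirror moved by 1 bin to the left they were 0.57, 0.76 and 0.58, so the best placement lay 10 kb left of the limits given above. The 4 bins nearest the join are the sequence on which much of what follows turns. In Inv1, Inv1DelCTCF and Inv1 ESC their factors lay 0.128, 0.0883 and 0.0925 from the WT bins of that mirror placement, as a mean absolute difference of natural logs. From the WT bins at the same file position they lay 0.302, 0.383 and 0.297 in the same order. In these 3 maps the last 4 bins thus carried the joined sequence and not that of the uninverted domain. For Inv2, Inv3 and Inv4 this check could not be made, since WT signal had been subtracted from the maps. In Inv1DelCTCF the factors right of the inversion matched WT nearly as well when moved by 1 bin (0.56) as unmoved (0.63, across 495 bins), against 0.24 and 0.99 in Inv1, so positions in that map appear offset by part of a bin.

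By share of contacts, the joined sequence met the Epha4 domain more than the same sequence in WT in all 6 mutant maps. It met the domain less than the native sequence at that place did in WT. Relative to distance, Inv1 ESC was not above the same sequence in WT over all 33 bins, as given below. The share of all contacts of the 33 bins that fell on the domain was 20.6% ± 0.080 for Inv1, 23.02% ± 0.154 for Inv2, 21.1% ± 0.176 for Inv3 and 20.4% ± 0.175 for Inv4 (± counting standard error throughout, approximate in Inv2 to Inv4). Inv1DelCTCF had 20.4% ± 0.082 and Inv1 ESC 15.0% ± 0.068. In WT the same sequences had 9.96% (Inv1), 5.11% (Inv2), 3.45% (Inv3) and 3.12% (Inv4). The 4 limb bud inversions thus differed little in the share reached, while the same sequences in WT spanned 3.12% to 9.96%. The shares were 2.07, 4.51, 6.11 and 6.55 times those of the same sequence in WT for Inv1 to Inv4, 2.05 times in Inv1DelCTCF and 1.51 times in Inv1 ESC. The native sequence at the same position in WT, 75.57 to 75.90 Mb, gave 32.2% ± 0.080 of its contacts to the rest of its domain. The mutant shares came to 64.1%, 71.5%, 65.6% and 63.5% of that value in Inv1 to Inv4, to 63.4% in Inv1DelCTCF and to 46.7% in Inv1 ESC. All 6 lay outside the 95% counting intervals of both WT values. These intervals cover counting error only, and single libraries allow no test of the conditions.

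**Figure D1:**
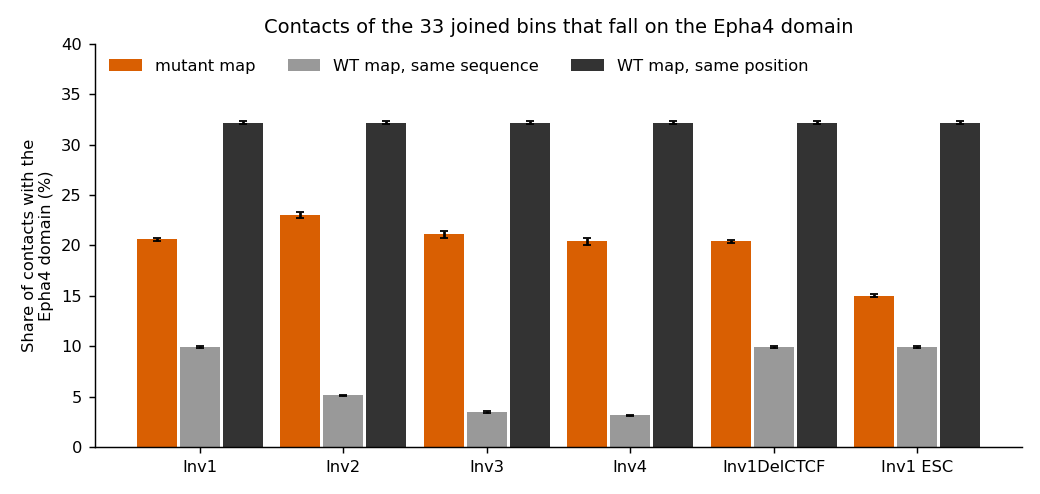
Share of all contacts of the 33 joined bins that fell on the Epha4 domain, in percent. For each mutant the bars show the mutant map, the same sequence in WT and the same position in WT; error bars are 95% counting intervals. The mutant bars stand between 15.0% and 23.02%, above the same sequence and below the same position in WT.

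The Inv2, Inv3 and Inv4 maps hold negative values that match a subtraction of weighted WT signal, inferred from the values, at 4.18%, 4.27% and 5.50% of the member pairs. The subtracted signal made up 17.7%, 14.2% and 13.2% of the members' signal before subtraction, against 49.3%, 49.4% and 49.1% of all signal. With it added back, the shares were 14.2% for Inv2, 12.2% for Inv3 and 11.8% for Inv4. Each is a mix of the share in the deposited map and that of the same sequence in WT. It thus lies between them by construction and tests nothing. Levels of these 3 maps therefore hold for the inverted chromosome only if the subtracted part was the uninverted one, which was not tested. From the side of the domain, the joined bins received 4.22% of its contacts in Inv1, 4.72% for Inv2, 4.19% for Inv3, 4.06% for Inv4, 4.18% for Inv1DelCTCF and 3.08% for Inv1 ESC, against 6.60% for the native bins in WT.

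The other partners of the joined bins were compared in the same way. The share of their contacts with sequence left of the inversion was 10.98% for Inv1, 6.998% for Inv2, 5.36% for Inv3 and 6.94% for Inv4, against 20.6%, 21.04%, 16.9% and 17.3% for the same sequences in WT. The share with sequence beyond the Epha4 domain was 9.43%, 10.1%, 10.7% and 12.1% in Inv1 to Inv4, against 6.52%, 4.42%, 3.75% and 3.68% in WT. The joined stretch itself took 53.5% of the contacts in Inv1, 49.8% for Inv2, 49.6% for Inv3 and 44.7% for Inv4, against 58.9%, 60.9%, 63.2% and 60.7% in WT. Contacts with the former left neighbours and within the stretch were thus lower, and those with the domain and beyond it higher, than in WT. In Inv1 ESC the share with sequence left of the inversion was 15.5%, more than the 10.98% of Inv1 limb buds.

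Contact falls with distance, and the inversions changed the distance between the same sequences, so contact was also expressed over its mean in the same map at the same distance (observed over expected). Over all member pairs it was 1.43 for Inv1, 1.57 for Inv2, 1.34 for Inv3, 1.18 for Inv4, 1.41 for Inv1DelCTCF and 0.959 for Inv1 ESC. The same sequences at their own WT distance had 1.05 (Inv1), 0.662 (Inv2), 0.566 (Inv3) and 0.590 (Inv4), and the native position in WT had 2.25. On the log2 scale the mutants lay 0.45, 1.24, 1.24 and 1.00 above the same sequence in WT for Inv1 to Inv4 and 0.43 above it in Inv1DelCTCF. In Inv1 ESC the difference was -0.13 over all 33 bins, and 0.54 with the nearest 20 bins alone.

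The stretch was not uniform: the 4 bins nearest the join had 1.01 (Inv1 ESC) to 1.34 (Inv1DelCTCF) times the native level of contact with the domain, and the other 29 bins 0.355 to 0.640 times. Observed over expected of the nearest 4 bins was 2.64 ± 0.026 for Inv1, 2.35 ± 0.040 for Inv2, 2.17 ± 0.034 for Inv3, 2.37 ± 0.037 for Inv4, 2.70 ± 0.027 for Inv1DelCTCF and 2.03 ± 0.023 for Inv1 ESC. The native 4 bins in WT had 2.01 ± 0.021. In WT the same sequences had 0.690, 0.562, 0.611 and 0.534 for Inv1 to Inv4. All mutants but Inv1 ESC thus exceeded the native position by more than the counting error. Between 42.4% (Inv3) and 49.0% (Inv1DelCTCF) of the contacts of these 4 bins fell on the domain, against 40.9% at the native position. The other 29 bins had 1.27 ± 0.008 for Inv1, 1.46 ± 0.013 for Inv2, 1.22 ± 0.013 for Inv3, 1.01 ± 0.012 for Inv4, 1.23 ± 0.008 for Inv1DelCTCF and 0.811 ± 0.006 for Inv1 ESC, against 2.29 ± 0.009 at the native position. The choice of 4 bins followed the window in which the border had been seen, so the split describes the maps and is not a test of them.

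**Figure D2:**
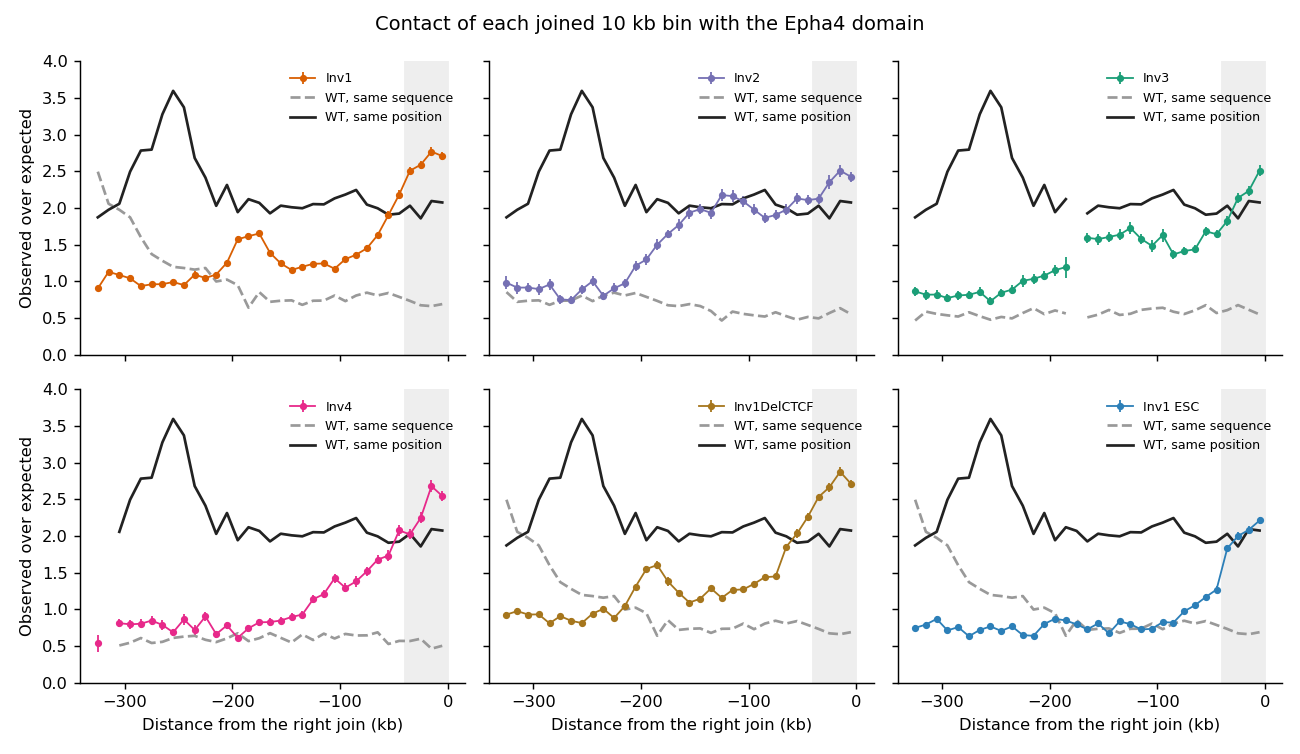
Mean observed over expected contact of each joined 10 kb bin with the Epha4 domain, by distance from the right join in kb, in the 6 mutant maps (points, with counting standard errors), with the same sequence (dashed) and the same position (solid black) in WT. The shaded 40 kb are the 4 nearest bins, which average 2.03 to 2.70; gaps are the low-coverage bins of Inv3 and Inv4.

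The 4 nearest bins had more contact relative to the native level than the other 29 at every distance. They reached that level in only some of the classes of distance. For the 4 nearest bins the ratio to the native position in WT was 0.89 at 10 to 100 kb in Inv1, and 1.09, 1.2, 1.22, 1.3 and 1.64 at 110 to 300, 310 to 600, 610 to 1000, 1010 to 1500 and 1510 to 1930 kb. In Inv2 it was 0.71, 0.90, 0.97, 1.11, 1.17 and 1.49 over the same classes, in Inv3 0.67, 1.02, 1.08, 1.00, 1.07 and 1.26, and in Inv4 0.76, 0.98, 0.97, 1.08, 1.22 and 1.43. These ratios were thus lowest in the class next to the join and highest at the far end of the domain in the 4 limb bud inversions. In Inv1 ESC the order was another: 0.95, 1.32, 1.28, 0.96, 0.93 and 1.04. For the other 29 bins the ratio stayed between 0.40 and 0.67 in the 4 limb bud inversions over all 6 classes, and between 0.28 and 0.47 in Inv1 ESC. Those bins had no class of distance at which they reached the native level.

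**Figure D3:**
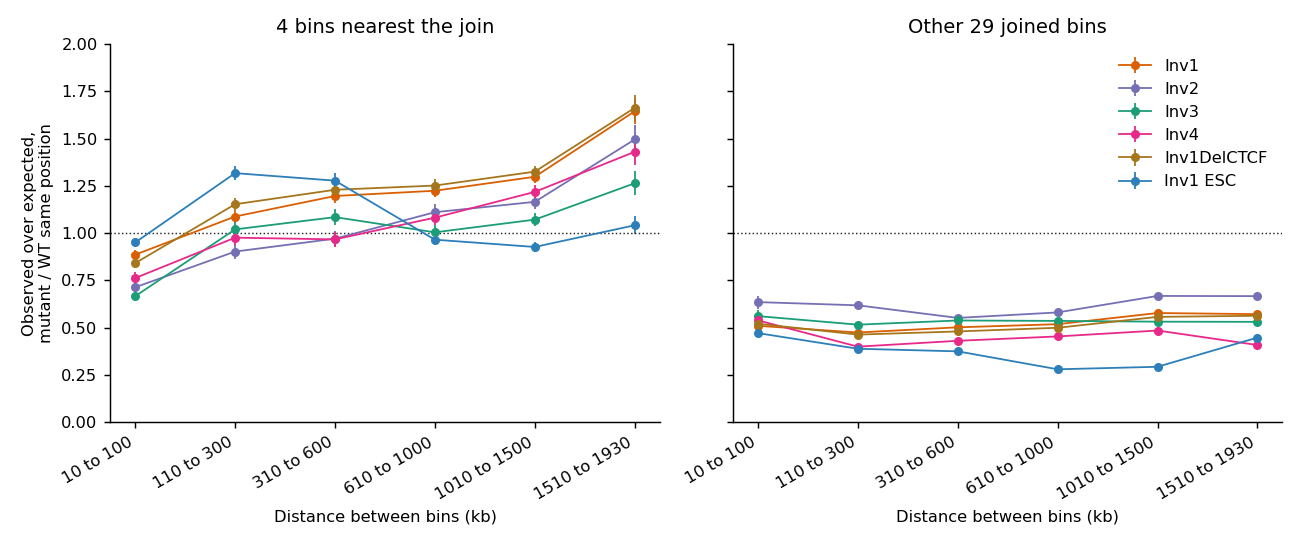
Ratio of observed over expected contact with the Epha4 domain, mutant over the same position in WT, by distance between the bins in kb, for the 4 joined bins nearest the join (left) and the other 29 (right). Error bars are counting standard errors and the dotted line marks equality; the right panel lies between 0.28 and 0.67 throughout.

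With the stretch cut into 11 near, 11 middle and 11 far bins, contact in the limb bud maps was highest next to the join and lowest at the far end. In Inv1 the near, middle and far bins had 1.961, 1.33 and 1.01. The values were 2.13, 1.69 and 0.887 for Inv2, 1.76, 1.42 and 0.838 for Inv3, 1.87, 0.861 and 0.776 for Inv4, and 2.04, 1.28 and 0.907 for Inv1DelCTCF. WT had 2.04, 2.05 and 2.66 at the same positions, so there the far bins met the domain most. In Inv1 ESC the near bins had 1.36, the middle ones 0.775 and the far ones 0.739. The far bins of the Inv1 stretch lie next to the WT border of the Epha4 domain, and their contact with the domain was lower in Inv1 than in WT. They gave 11.7% ± 0.107 of their contacts to the domain in Inv1 and 10.3% in Inv1DelCTCF, against 16.6% in WT, and 0 of the 11 bins were above WT in observed over expected. For these 11 bins the join thus went with less contact with the domain than in WT.

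Single bins showed where the contact changed. The 3 bins with the most contact were the last 3 before the join in all 6 maps. In Inv1 they had 2.59, 2.77 and 2.71, and in Inv4 2.25, 2.68 and 2.54. The 3 with the least contact in Inv1 lay 245, 285 and 325 kb from the join, at 0.949, 0.935 and 0.903. In Inv2 they lay 235, 265 and 275 kb from it, at 0.803, 0.744 and 0.755. Inv1 and Inv1DelCTCF also had a second, lower rise about 185 kb from the join, chosen after its values were seen. There the bin that holds 75.46 to 75.47 Mb had 1.62 ± 0.050 (Inv1), 1.60 ± 0.057 (Inv1DelCTCF) and 0.849 ± 0.035 (Inv1 ESC), against 0.641 for the same sequence in WT limb buds. The bins on its 2 sides had 1.65 and 1.57 in Inv1, against higher WT values of 0.853 and 0.948. The rise was thus seen in limb buds with and without the CTCF deletion. In Inv1 ESC the bins 155 to 215 kb from the join ranged from 0.640 to 0.872, so any rise there was smaller.

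The steepest change along each stretch was located as the largest difference between the 5 bins nearer the join and the next 5 bins, a measure chosen after the profiles had been seen. It lay 50 kb from the join in Inv1 (2.55 over 1.53), Inv3 (2.07 over 1.51), Inv4 (2.31 over 1.52) and Inv1 ESC (1.88 over 0.969). Windows of 5 bins can return no nearer place, so in these 4 maps the place is a limit of the measure. It lay 60 kb from the join in Inv1DelCTCF (2.47 over 1.47). In Inv2 it lay 190 kb from the join (1.77 over 1.04), so that a much longer piece kept the higher level. Inv3 had a second fall at a similar distance. Its bins 135 to 165 kb from the join had 1.57 to 1.64, and those 185 to 225 kb from it 1.01 to 1.19. In sequence, the Inv2 point was 75.32 Mb, 10 kb from a WT border at 75.31 Mb with a depth of 0.53. In Inv2 the 18 bins between that border and the join averaged 2.06, with a range of 1.65 to 2.51, and the 15 bins behind it 0.983, with a range of 0.744 to 1.5. The 2 ranges did not overlap, but a cut between 205 and 215 kb from the join gave no overlap either. Its nearer bins were at 1.21 or more and its farther bins at 1.00 or less. The lack of overlap thus does not single out that border. In Inv1 the same border lies 40 kb from the join, with 3 bins before it at 2.59 to 2.77 and the 30 bins behind it at 0.903 to 2.51, the nearest 5 of which averaged 1.93. Contact in Inv1 thus also fell without a clear step at that border. The joined stretches of Inv3 and Inv4 do not reach this sequence, so the second fall of Inv3 lay at other sequence. How often a match like that of Inv2 would arise by chance was not tested.

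**Figure D4:**
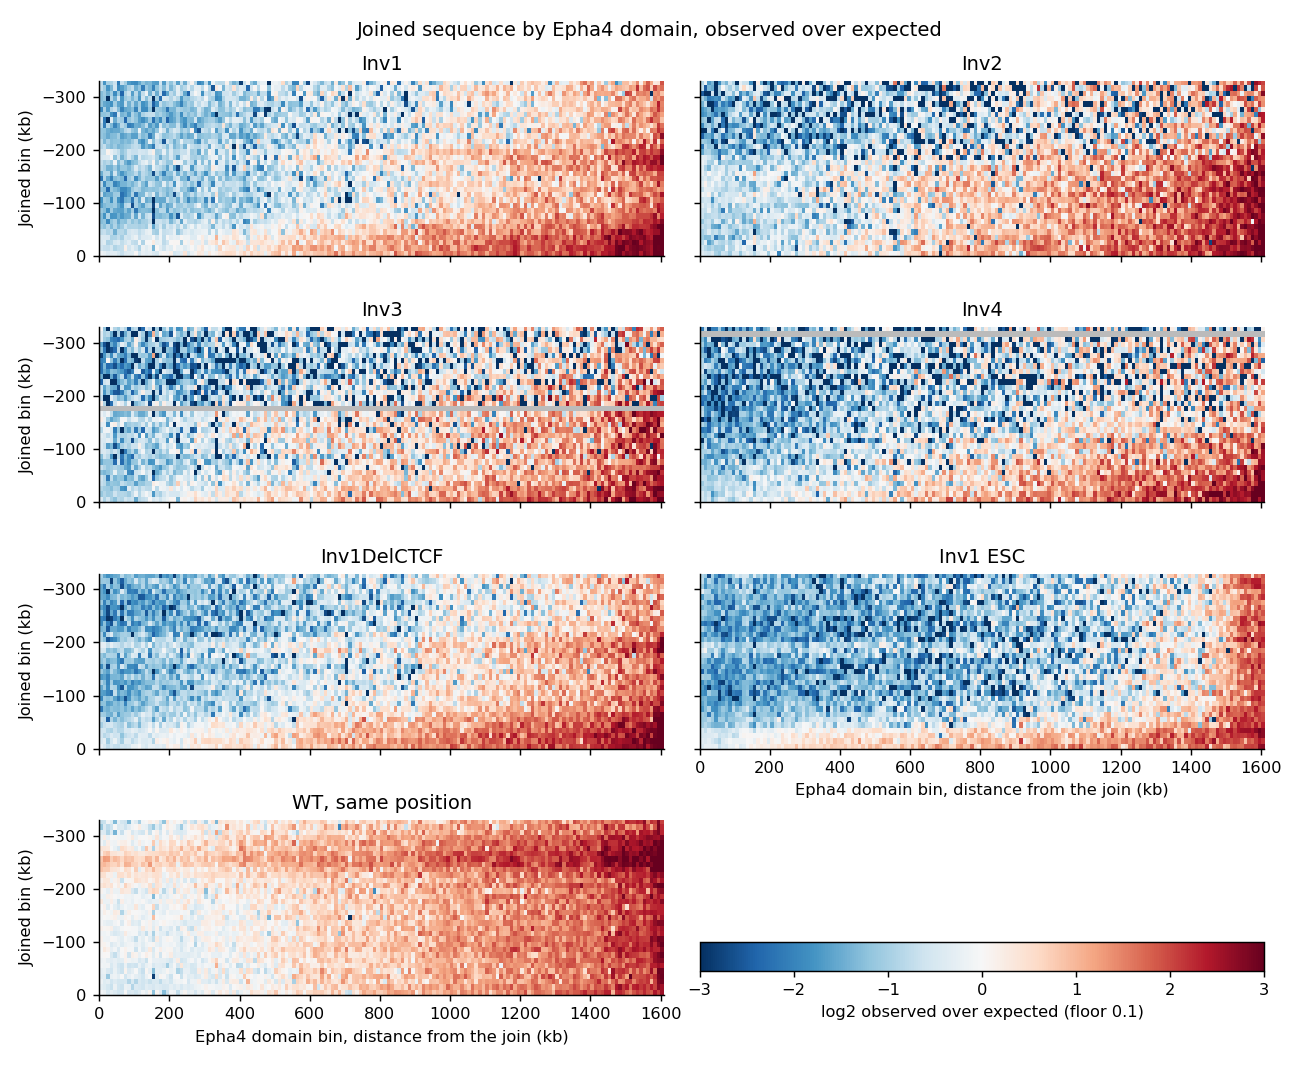
Observed over expected contact between the joined bins (vertical axis, kb left of the join) and the bins of the Epha4 domain (horizontal axis, kb right of the join) in the 6 mutant maps and at the same position in WT. Colours give log2 of observed over expected with a floor of 0.1, and grey marks low-coverage bins. Contact is highest in the bottom right of each mutant panel, where the 4 nearest bins meet the far end of the domain; in Inv2 the higher level reaches up to about 190 kb from the join.

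Neighbouring stretches share sequence, so that the same bins could be read at different distances from the join. The sequence of 75.28 to 75.46 Mb (18 bins) had 1.70 ± 0.011 in Inv1, where it lies next to the join, and 1.12 ± 0.017 in Inv2, where it lies 150 kb farther away, against 0.755 in WT. The sequence of 75.13 to 75.26 Mb (13 bins) had 2.14 ± 0.021 in Inv2 and 0.872 ± 0.017 in Inv3, 200 kb farther away, against 0.539 in WT. The sequence of 74.93 to 75.12 Mb (19 bins) had 1.68 ± 0.018 in Inv3 and 0.776 ± 0.014 in Inv4, 140 kb farther away, against 0.583 in WT. In each of the 3 cases the same sequence had, relative to distance, 1.53 to 2.45 times the contact where it lay nearer the join. Within these pairs of maps the same sequence thus had different levels at different places in the stretch.

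Within the domain, contact of the joined sequence was ordered along the domain as that of native sequence is, and as that of the same sequences in WT already was. Observed over expected with the 4 consecutive parts of the domain was 0.559, 0.901, 1.5 and 2.74 for Inv1, 0.589, 0.942, 1.62 and 3.09 for Inv2, 0.555, 0.922, 1.35 and 2.48 for Inv3 and 0.461, 0.787, 1.26 and 2.2 for Inv4. WT had 1.05, 1.58, 2.40 and 3.94 at the same position, and 0.518, 0.724, 1.03 and 1.90 for the sequence joined in Inv1. The order of the parts was thus the same, with the most contact over the last part (77.10 to 77.51 Mb), next to the far border. For that part the ratio to the native position was 0.695 for Inv1, 0.784 for Inv2, 0.630 for Inv3, 0.557 for Inv4, 0.693 for Inv1DelCTCF and 0.495 for Inv1 ESC. The single partner bin with the most contact was the last one, 77.50 to 77.51 Mb, in Inv1 (5.39 ± 0.1995), Inv2 (6.70 ± 0.339), Inv4 (4.04 ± 0.281) and Inv1DelCTCF (6.14 ± 0.236), as at the native position in WT (7.30). In Inv3 it was the bin at 77.48 Mb (4.23 ± 0.292) and in Inv1 ESC the bin at 77.49 Mb (4.51 ± 0.199). Across these partner bins the mean profile correlated with that of the native position at 0.99 in Inv1 and 0.92 in Inv1 ESC, the extremes of the 6 maps. With that of the same sequence in WT it correlated at 0.91 (Inv4) to 0.97 (Inv1), and at 0.93 in Inv1 ESC. These points share distance and the far border. In each map 0 of the partner bins were above the native position. Above the same sequence in WT were 150 of them in Inv1, 143 in Inv1DelCTCF and 22 in Inv1 ESC, and every one in Inv2, Inv3 and Inv4.

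Blocks of 5 by 5 bins were counted as changed where observed over expected, with a pseudocount of 0.1, differed over 2-fold from the same sequences in WT. Of 192 blocks of the joined pairs, 46 were above WT in Inv1, 102 for Inv2, 101 for Inv3, 57 for Inv4, 45 for Inv1DelCTCF and 30 for Inv1 ESC. Among 5593 blocks with both sides outside every inversion, 0.0894% (Inv1), 0.662% (Inv2), 0.912% (Inv3), 0.805% (Inv4), 0.0715% (Inv1DelCTCF) and 1.2% (Inv1 ESC) were that far above WT. The members' counts thus lay far over this background in every map. The row of 32 blocks next to the join held 29 of the 46 in Inv1, all 30 in Inv1 ESC, and 29, 27 and 30 of those in Inv2, Inv3 and Inv4. Blocks below WT numbered 0 in the 4 limb bud inversions, 2 in Inv1DelCTCF and 24 in Inv1 ESC. The background shares below WT were 0.0536%, 3.38%, 3.18% and 1.56% for Inv1 to Inv4, 0.0715% for Inv1DelCTCF and 0.429% for Inv1 ESC. The median over the members was 0.52, 1.07, 1.03 and 0.53 on the log2 scale for Inv1 to Inv4, 0.50 for Inv1DelCTCF and -0.14 for Inv1 ESC, with background medians of 0.0092 to 0.068.

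A border with a depth of 0.60 to 1.42 stood near the right join in every mutant map. The WT map has only a shallow one within 100 kb, 0.22 deep and 70 kb right of the breakpoint. The insulation score compares contact across a bin, taken over 200 kb on either side, with the average of the map on the log2 scale. A low score marks a border, and its depth was measured against the lower of the highest scores on its 2 sides within 300 kb. The border lay at 75.86 Mb in Inv1 (depth 1.02 ± 0.022), 75.88 Mb in Inv2 (0.60 ± 0.037), 75.89 Mb in Inv3 (0.85 ± 0.038), 75.87 Mb in Inv4 (1.22 ± 0.046), 75.85 Mb in Inv1DelCTCF (1.07 ± 0.022) and 75.86 Mb in Inv1 ESC (1.42 ± 0.020). In WT the lowest point within 100 kb of that position was at 75.97 Mb, with a score of -0.30 and a depth of 0.22. The 6 lowest points lay 10 to 50 kb left of the join, on the side of the joined sequence. In Inv2 the scores were already low, at -0.51 to -0.64, from 190 to 50 kb left of the join. Its minimum of -0.71 thus ended a broad low stretch and was not a distinct dip on that side. For Inv2 and Inv3, at 20 and 10 kb, the join itself is within the 1 or 2 bins to which positions are known, and its score in Inv3 was -0.84, against -0.87 at the border. The order of the maps by depth depends on the square: Inv1 ESC was deepest and Inv2 shallowest here, while with a square of 300 kb Inv4 was deepest (1.31) and Inv1 shallowest (0.670). The sequence in its bin was that of 75.31 Mb (Inv1), 75.14 Mb (Inv2), 74.93 Mb (Inv3) and 74.81 Mb (Inv4). In Inv1 and Inv1 ESC this is the bin of the WT border at 75.31 Mb by the limits used here. By the mirror that matched best it is the bin 10 kb left of that border. In Inv2, Inv3 and Inv4 the lowest WT point within 100 kb of the sequence was 60 kb away in each case, with depths of 0.16, 0.46 and 0.46. The WT scores of the sequences themselves were -0.15, 0.44, -0.09 and -0.22 in Inv1 to Inv4, against -1.05, -0.71, -0.87 and -1.31 at the border in the mutants. In Inv2, whose lowest WT point within 100 kb was the shallowest (0.16), a border was measured as well. The placement of the sequence is good to 1 or 2 bins, so an element smaller than a bin cannot be assigned.

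**Figure D5:**
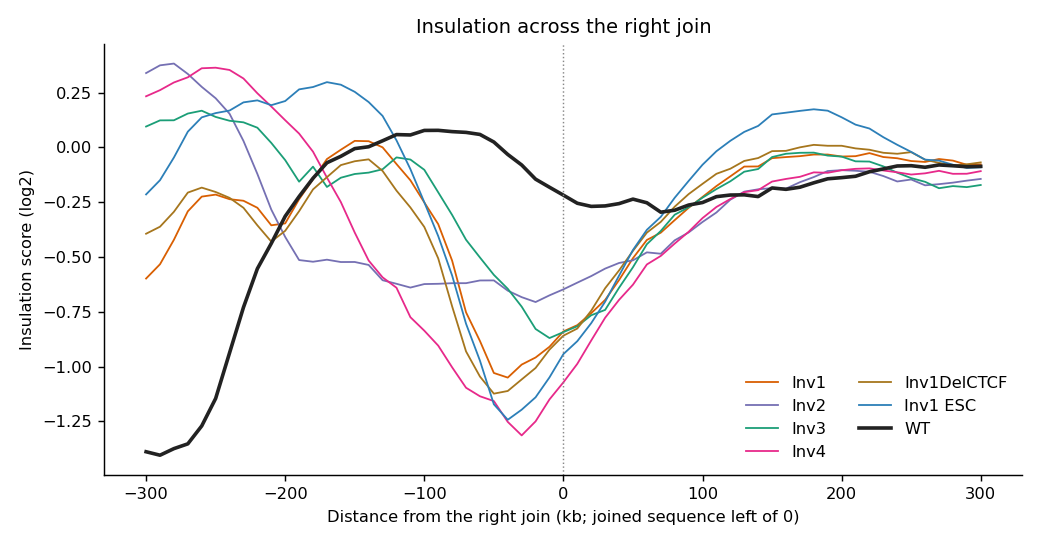
Insulation score (log2, 200 kb square) by distance from the right join in kb, with joined sequence left of 0, in the 6 mutant maps and WT. Every mutant curve has a minimum 10 to 50 kb left of the join, between -1.31 and -0.71. The WT curve stays at or above -0.30 from 50 kb left of the join to the right end. Its minimum at the far left is the WT border of the Epha4 domain.

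Inv1DelCTCF and Inv1 ESC share the arrangement of Inv1, so that they were compared with it bin by bin. For Inv1DelCTCF the bins match only to part of a bin, as found above, and the extent of its deletion is unknown. The share of the joined sequence with the domain was 20.4% in Inv1DelCTCF and 20.6% in Inv1, with a difference of -0.21 percentage points (95% counting interval -0.43 to 0.016). On recovered read pairs without balancing the difference was 0.47, so its direction depends on the scale. Observed over expected in Inv1DelCTCF was 1.04 ± 0.011 times that of Inv1 over the near bins, 0.960 ± 0.013 over the middle and 0.900 ± 0.015 over the far ones. The depths of the border, 1.07 in Inv1DelCTCF and 1.02 in Inv1, differed by 0.045 ± 0.031. Other contacts differed more: the share with the rest of the inverted segment was 7.32% ± 0.053 in Inv1DelCTCF and 5.48% ± 0.045 in Inv1. At the far end of the stretch, 340 kb from the join, lies the WT border of the Epha4 domain (75.61 Mb, depth 1.48 in WT). There the insulation score was -0.41 in Inv1DelCTCF and -0.93 in Inv1. Stem cells had less contact: the share was 15.0% in Inv1 ESC and 20.6% in Inv1 limb buds, a difference of -5.59 percentage points (-5.80 to -5.39). All 33 bins were lower in Inv1 ESC, at 0.482 to 0.829 times the observed over expected of Inv1, with a ratio of 0.669 ± 0.005 over all pairs. The middle bins differed most, at 0.582 ± 0.009 times Inv1, while the near bins had 0.694 and the far bins 0.733. Cell type, culture and library are not separable in this pair.

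The gene tables deposited by the authors give 1 scaled contact value per gene with an enhancer region, for the 4 limb bud inversions and WT. Neither the position of that region nor the scaling is given in the sources used here, and each table was scaled separately, so values across tables are set side by side and not tested. The first gene on the joined side had a lower value than the next gene outside in each inversion. These genes were picked by the largest fall in these same values, so that order is fixed by the choice and tests nothing. Dnpep had 1.69 in Inv1, against 1.01 in WT. Its left neighbour Resp18, which encodes a secretory protein of endocrine cells and stayed outside the inversion, had 21.4 in Inv1. Cnppd1 had 0.438 in Inv2 (0.857 in WT), while Slc23a3, a solute carrier gene, had 17.0. Cryba2 had 1.03 in Inv3 (0.587 in WT), while Fev, which encodes an ETS factor of serotonergic neurons, had 36.4. Wnt6 had 0.545 in Inv4 (0.401 in WT), while Prkag3, which encodes a muscle subunit of AMP-activated kinase, had 33.9. The tables of Inv2, Inv3 and Inv4 hold negative values, so no ratios are given.

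Whole runs of genes were set side by side in the same way. The run from Cnppd1 to Resp18 (13 genes), which includes Ptprn, an islet secretory granule protein gene, had a median of 0.386 in Inv2, 2.79 in Inv3 and 2.93 in Inv4, where it is inverted, against 0.776 in WT; in Inv1, where it stayed outside, the median was 13.9. The run from Cryba2 to Slc23a3 (6 genes), with Ihh and the DNA repair gene Nhej1, had medians of 1.55 for Inv3 and 2.77 for Inv4, where it is inverted, and of 6.47 for Inv1 and 8.94 for Inv2, where it is not, against 0.650 in WT. Ihh itself had -0.053 in Inv3 and 1.03 in Inv4, against 0.26 in WT. The run from Wnt6 to Fev (4 genes), with the ligand gene Wnt10a and Cdk5r2, an activator of the neuronal kinase Cdk5, had a median of 0.655 in Inv4, where it is joined, against 0.549 in WT. Where it lies outside, its median was 4.34 (Inv1), 5.47 (Inv2) and 18.3 (Inv3). The run from Dnpep to Slc4a3 (12 genes), with the muscle genes Des and Speg, is inverted in all 4 and had medians of 2.95, 3.11, 5.43 and 4.59 in Inv1 to Inv4, against 1.90 in WT. Epha4 itself had 0.487, 1.54, 2.0 and 1.25 in Inv1 to Inv4, against 7.68 in WT. Medians of inverted runs thus lay above WT in every case but Inv2 for the run from Cnppd1 to Resp18, while Epha4 lay below its WT value. For the 3 runs that are inverted in some maps only, the median was lower in each map where the run is inverted than in each map where it is not. The runs were cut at the largest falls in these same values, so this order follows in part from the choice. Many genes of these runs lie beyond the 33 joined bins.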

How the data were processed

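Contact maps of chromosome 1 (mm9) were deposited for 7 libraries. Bowtie2 2.2.6 and Juicer are named in the submitters' processing notes. The WT, Inv1, Inv1DelCTCF and Inv1 ESC maps hold a signal per pair of 10 kb bins that the authors balanced (Knight-Ruiz, going by the file names). The Inv2, Inv3 and Inv4 maps deposited by the authors hold a score with negative values. Of their negative pairs outside the inversion, 82.0%, 84.0% and 86.9% were in size within 1% of the WT signal times 0.423, 0.369 and 0.334, so subtraction of weighted WT signal was inferred; no label describes it. The authors' deposited gene tables hold a scaled contact signal (WT, Inv1) or score (Inv2 to Inv4) per gene; 103 of 103 genes matched RefSeq, 98 by current symbol.

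Read pairs were recovered by fitting 1 factor per bin. They numbered 3903613 for Inv1, 3997506 for Inv1DelCTCF, 4305911 for Inv1 ESC and 5155251 in WT, and 100.0% of the values under 20 came out whole, within a tolerance of 0.1. Outside the inversions Inv2, Inv3 and Inv4 had 3803338, 3228203 and 2851913. The members held 59500 read pairs in Inv1, about 40416, 29975 and 26051 for Inv2 to Inv4, 58678 for Inv1DelCTCF, 46024 for Inv1 ESC and 128946 at the same position in WT. Errors are counting errors from these read pairs; read pairs are not shown to be independent molecules. The recovery, the ratio and the border were tested on a simulated map. Alternatives were the number of joined bins, the expected value, balancing, the treatment of negative values, the insulation square and the block settings.

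The members and gene lists were chosen with earlier results of these data known. Genes were named by a rule: Epha4, the first gene and the runs of each joined stretch, genes of known role in them, and the 3 highest and lowest bins per map. First genes and runs were set by the largest falls in contact along the gene tables. The neighbour genes Resp18, Slc23a3, Fev and Prkag3 were set beside the first genes as the next genes in the table. Computation used Python 3.11.15, numpy 2.4.6, pandas 2.3.3 and matplotlib 3.10.9.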

Additional observations from a re-analysis of the deposited data

How the results depend on the processing

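No paired analysis was possible because each condition has 1 library, and no replicate was left out for the same reason. Of the shares and log2 differences from WT that were recomputed, 1 changed its direction (Inv1 ESC with 20 joined bins), and the border stayed within 1 bin of its place under all insulation settings. Sizes moved more than their small counting errors in most cases; the cause was not tested except where the setting itself shows it.

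With 20 joined bins in place of 33, which leaves out the bins farthest from the join, the share with the domain was 26.1% for Inv1, 30.8% for Inv2, 27.9% for Inv3, 26.1% for Inv4, 26.5% for Inv1DelCTCF and 19.4% for Inv1 ESC. The log2 difference from the same sequence in WT was then 1.16, 1.75, 1.5, 1.24, 1.17 and 0.54 in the same order; in Inv1 ESC it had been -0.13 with 33 bins, so its direction depends on the far bins. Without the 2 bins on either side of the breakpoint, the shares were 18.0%, 20.7%, 18.6%, 17.6%, 17.7% and 12.1%, and the log2 differences 0.33, 1.18, 1.16, 0.87, 0.30 and -0.28. With expected values from pairs outside all inversions, the log2 differences were 0.31, 1.08, 0.99, 0.71, 0.29 and -0.29. The ratios of the last part of the domain to the native position were then 0.645, 0.753, 0.587, 0.505, 0.645 and 0.442, and the ratio of Inv1 over Inv2 at their shared sequence 1.46. With negative values set to 0, the shares of Inv2, Inv3 and Inv4 were 22.1%, 20.2% and 19.7% and their log2 differences 1.13, 1.12 and 0.91. With the subtracted signal added back the shares were 14.2%, 12.2% and 11.8%. On recovered read pairs without balancing, the share was 20.8% (Inv1), 21.3% (Inv1DelCTCF) and 13.8% (Inv1 ESC). The difference from Inv1 was then 0.47 for Inv1DelCTCF, against -0.21 on the balanced map, and -7.02 for Inv1 ESC, which had -5.82 without the bins at the breakpoint.

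With insulation squares of 100 kb, the depth of the border was 1.08 for Inv1, 0.961 for Inv3, 1.04 for Inv4, 1.13 for Inv1DelCTCF and 1.18 for Inv1 ESC. With squares of 300 kb it was 0.670 for Inv1, 0.771 for Inv2, 0.945 for Inv3, 1.31 for Inv4, 0.789 for Inv1DelCTCF and 1.13 for Inv1 ESC. The order of the maps by depth thus changed with the square. From observed over expected it was 0.861 for Inv1, 1.33 for Inv4, 0.827 for Inv1DelCTCF and 1.46 for Inv1 ESC. With a pseudocount of 0.5, blocks above WT were 10.9%, 32.3%, 21.9% and 15.1% for Inv1 to Inv4, 12.0% for Inv1DelCTCF and 7.29% for Inv1 ESC. The background shares were at most 0.107%. Blocks below WT were then 0 for Inv1DelCTCF and 1.04% for Inv1 ESC (background 0 and 0.0536%); with 0.05 they were 2.08% for Inv1DelCTCF (background 0.161%). With blocks of 3 by 3 bins, 4.97%, 1.03%, 0.343% and 1.37% were below WT in Inv1 to Inv4, 8.75% (Inv1DelCTCF) and 18.4% (Inv1 ESC). The background was 0.846%, 8.61%, 8.07%, 5.97%, 0.852% and 1.59% in that order, so Inv2, Inv3 and Inv4 lay under it. After the data had been seen, the mirror was moved by 1 bin: the WT share of the joined sequence was then 9.28% (left) and 10.8% (right) for Inv1 and 4.98% (left) for Inv2.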
